A study of Homo sapiens with 8 samples.

Results

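Convergent gene pairs are neighbouring genes on opposite strands that point toward each other, so that their 3′ ends meet. Poly(A) peaks at such ends were taken from 1 list of poly(A) sites of human neuroblastoma cells. A pair was formed by 2 protein-coding genes whose most distal annotated transcript ends overlapped or lay within 1 kb of each other. Members were the peaks overlapping the span between these ends, extended by 600 bp on each side. The annotation gave 1428 pairs of 2839 genes, which is 14.6% of 19389 protein-coding genes, and 2806 of the 153624 peaks (1.83%) were members.

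Kelly is a neuroblastoma line in which MYCN is amplified. In its derivative Kelly E9R, CDK12 is mutated at the cysteine to which THZ531 attaches. The compound inhibits CDK12 and CDK13 covalently, and both are kinases that act on RNA polymerase II during elongation. Each line received DMSO or 400 nM THZ531 for 6 h, per the labels, which gives the groups Kelly DMSO, Kelly THZ531, Kelly E9R DMSO and Kelly E9R THZ531 with 2 biological replicates each, 8 libraries in all. The study's methods state a concentration for Kelly cells that differs from the labels. Peaks were called on the merged reads of all libraries, so the list holds treated and untreated cells of both lines together, with no value per library and no strand. THZ531 could not be compared with DMSO, no value has a replicate, and the depth per library is unknown. All 12 neuroblastoma markers examined had a peak in the window that spans 200 bp ahead of an annotated end and 600 bp past it. The highest pileup there ranged from 29 (CHGB) to 96 (MYCN) in 11 of them, and PHOX2A had a peak of 121 that it shares with its convergent partner. The pileup is the number of reads, extended to 100 bp, that lie over the summit of a peak. Of 8 markers of other cells, PTPRC, CD3E, KRT8 and PECAM1 had no such peak, and COL1A1, COL3A1, EPCAM and VWF had pileups from 6 to 16.

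In 3′ end formation, the cleavage and polyadenylation specificity factor binds the poly(A) signal, most often AATAAA in the DNA, the transcript is cut a short distance after it, and a poly(A) tail is added. Where genes converge, each transcript must end before, or inside, the sequence of its neighbour, and transcripts that run into each other share complementary sequence at their 3′ ends. CDK12 is known for its effect on transcription of long genes and on genes of the DNA damage response.

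The signals of convergent ends are shown first, since the peaks carry no strand and the signal has one. The highest member pileups, chosen after their values were seen, were 121 at INPPL1/PHOX2A and 103 at POLR2C/DOK4. INPPL1 encodes an inositol phosphatase, PHOX2A a transcription factor of noradrenergic neurons, POLR2C a subunit of RNA polymerase II and DOK4 a docking protein. The 30 bases before each annotated end are given 5′ to 3′ on the strand of the gene (GRCh38), with AATAAA in capitals.
INPPL1 (forward strand, chr11:72239118-72239147): tcAATAAAttacaagtttttcaaagaaaaa
PHOX2A (reverse strand, chr11:72239077-72239106): atccaAATAAAacttaatttattgaagaca
POLR2C (forward strand, chr16:57471980-57472009): ttttggcAATAAAgagcacaacataatctc
DOK4 (reverse strand, chr16:57471922-57471951): ttaatcAATAAAtatcctttcctttctgta

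All 4 genes had the signal within 28 bp of their annotated end, and the ends of the genes overlapped by 71 bp at INPPL1/PHOX2A and by 88 bp at POLR2C/DOK4. Each overlap was covered by 1 peak, at chr11:72238839-72239206 with a fold enrichment of 14.6 and at chr16:57471823-57472072 with a fold enrichment of 23.3. In the whole list, 16 peaks exceeded a pileup of 100. Of these, 7 lay on the mitochondrial chromosome and 7 at chr1:629090-634918, a copy of mitochondrial DNA, and the other 2 were these convergent ends. The highest pileup in the list was 200. By default MACS2 keeps 1 read per position and strand, so that reads of 1 strand extended to 100 bp cannot exceed a pileup of 100. Under that setting only peaks with reads of both strands can pass this limit, and whether it was used is not stated. Reads of both strands can add to the pileup at the 2 convergent ends. Since the peaks carry no strand, the share of each gene in them cannot be told apart.

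Of 91 detected ends of the pairs selected by rule for naming, 44 had AATAAA within 50 bp before the 3′ edge of their peak. Of these, 8 are shown: both genes of CREB3L4/JTB and of SMIM27/NDUFB6, which ended in separate peaks, and 4 genes of the DNA damage response and cleavage lists described below. Among the 24 detected ends of list genes in the pairs named for a list, 13 had AATAAA in this window and the other 11, among them FANCA, MUTYH, DCLRE1C, CPSF4 and NELFA, did not. AATAAA is in capitals.
CREB3L4 (forward strand, chr1:153974338-153974367): gaAATAAAcgttttagctgaaattgtatcc
JTB (reverse strand, chr1:153974502-153974531): AATAAAaagagtaaaatggtttccttccct
SMIM27 (forward strand, chr9:32552983-32553012): aaAATAAAattcataatgcaaagttcccaa
NDUFB6 (reverse strand, chr9:32553525-32553554): aaatatcacAATAAAcaaatgtaagaacag
CHEK1 (forward strand, chr11:125676230-125676259): gaaaaAATAAAgttctgaatcttcaagttc
TP53BP1 (reverse strand, chr15:43403064-43403093): agtaagcactcAATAAAtatttaatgatga
ERCC1 (reverse strand, chr19:45409615-45409644): taatAATAAAtcgtcctcccaggccaggct
FIP1L1 (forward strand, chr4:53459642-53459671): aaaAATAAAaagacagcaatgactttatat

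AATAAA was searched on both strands of the 76 peaks with edges at annotated ends of both genes. At 6 of them, an AATAAA of the forward strand and an AATAAA of the reverse strand lay within 30 bases of each other. The latter reads TTTATT on the forward strand. Of these 6 peaks, 4 are shown on the forward strand, with both motifs in capitals, to display how close motifs of both strands can lie.
NAB2/STAT6 (chr12:57095443-57095472): tattttggAATAAAaTTTATTttatggctt
RMC1/NPC1 (chr18:23531742-23531771): agttaaTTTATTgcattAATAAAgctcttt
RELL2/FCHSD1 (chr5:141641025-141641054): tgcccTTTATTcattgtcAATAAAtccgct
NKIRAS2/ZNF385C (chr17:42025592-42025621): TTTATTgatgcattggttggacacAATAAA

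In NAB2/STAT6, a transcriptional co-repressor and a transcription factor of interleukin signalling, both motifs fitted into 13 bases. In 2 of the 4 pairs the TTTATT shown is not the one nearest the reverse gene's edge. The nearest AATAAA of the reverse strand lay 71 bp from that edge at NAB2/STAT6 and 74 bp at RMC1/NPC1, outside the bases shown. The pileups of these 4 peaks were 27 (NAB2/STAT6), 28 (RMC1/NPC1), 30 (RELL2/FCHSD1) and 40 (NKIRAS2/ZNF385C). Such close motifs of both strands were found in 7.89% of the 76 peaks (95% Wilson interval 3.67 to 16.2%). The share was 5.90% (4.74 to 7.32%) of 1288 peaks ending 1 gene of a pair and 7.55% (6.89 to 8.27%) of 5614 peaks at isolated gene ends, so the intervals overlapped.

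Most pairs had a peak. A member was found in 1316 pairs (92.2%): 530 pairs had 1 peak, 441 had 2, 345 had 3 or more, and 112 had none. Ends overlapped by annotation in 879 pairs, with a median of 1320 bp, whereas the other 549 pairs were separated by a median of 344 bp. The overlap exceeded 1 kb in 495 pairs and 10 kb in 103. The longest was 142.2 kb, between SYNE2, which encodes a nuclear envelope protein, and ESR2, the estrogen receptor beta gene.

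Members were deeper than the list as a whole. Their median pileup was 20 (quartiles 13 and 30), against 9 (6 and 14) in all peaks. The median local background, in reads per 100 bp, was 1.38 against 0.5, and the median fold enrichment, the ratio of pileup to background with 1 added to each, was 8.19 against 6.29. A pileup of at least 30 was reached by 718 members (25.6%), against 4.01% of all peaks. A −log10 q of at least 5, the limit the study used, was reached by 91.9% of members against 73.5% of all peaks, and one of 10 or more by 63.5% against 28.4%. A comparison with other gene ends is given below.

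An end was called detected when the 3′ edge of a peak, which is its end coordinate for a forward gene and its start for a reverse gene, lay within 50 bp of an annotated transcript end. Both ends were detected in 327 pairs (22.9%, 20.8 to 25.1%; intervals of shares are 95% Wilson intervals throughout), 1 end in 694 (48.6%), and neither in 407, of which 295 (20.7%) had a peak elsewhere in the span. Of pairs with a gap over 200 bp, 33.5% (28.9 to 38.4%) had both ends detected. The share was 17.6% (12.7 to 23.9%) with a gap of up to 200 bp, 21.7% (16.8 to 27.5%) with an overlap of up to 200 bp and 18.8% (15.6 to 22.5%) with an overlap over 1000 bp. Detection of 1 end said little about the other. The reverse gene was detected in 51% of pairs whose forward gene was detected and in 48.3% of the others, an odds ratio of 1.12.

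**Figure D1:**
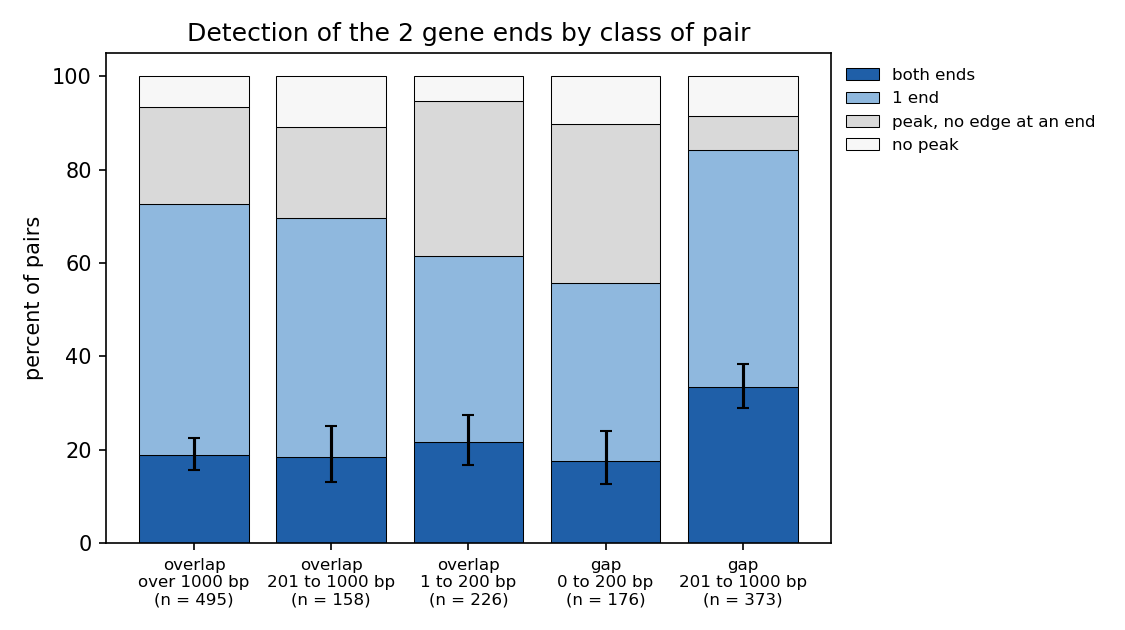
Percent of convergent pairs (vertical axis) by detection of their ends, for 5 classes of annotated distance (horizontal axis; n is the number of pairs). Error bars are 95% Wilson intervals of the share with both ends detected, which is 33.5% for gaps over 200 bp and 17.6 to 21.7% in the other classes, where more pairs have a peak with no edge at an end.

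By construction, reads extended by 100 bp from ends that overlap by less than 50 bp, or that lie close together, form 1 peak whose edges lie more than 50 bp past both ends. Such ends are not counted as detected. When an end inside a peak was also counted, an alternative chosen after seeing the data, both ends were detected in 55.4% of pairs.

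The edges of the members marked the annotated ends closely. Of 2598 3′ edges within 300 bp of an annotated end, 1212 lay within 20 bp of it, against 126 of 2665 edges on the other side of the peaks. No member was narrower than 100 bp, so a 3′ edge at an end sets the other edge of that peak away from it. The contrast of both sides is therefore a description. The median position of the 3′ edges within 50 bp was 1 bp past the annotated end. Farther out the edges were not symmetric, with 538 lying 51 to 150 bp past the end and 55 lying the same distance before it.

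**Figure D2:**
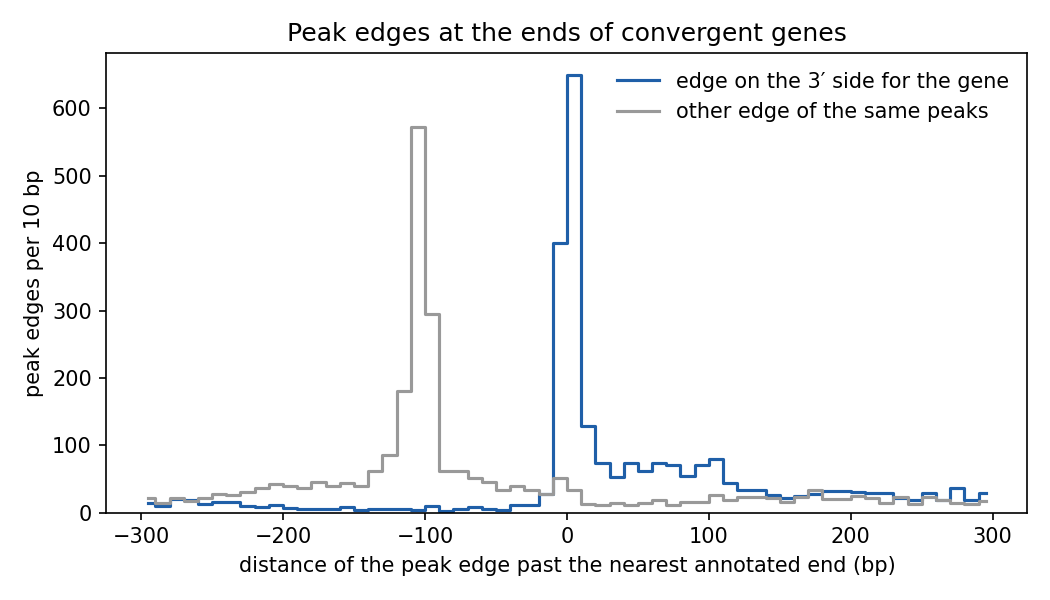
Number of peak edges per 10 bp (vertical axis) by distance past the nearest annotated end of the gene in bp (horizontal axis), for the 3′ edge and the other edge of the same peaks. The 3′ edges pile up at 0, with 1212 of 2598 within 20 bp, and have a shoulder of 538 edges 51 to 150 bp past the end; the other edges pile up about a read's extension before it.

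At peaks that ended 1 gene only, the annotated end at the edge gave the strand, and the poly(A) signal was then described on both strands. Of 1288 such peaks, 81.0% (78.7 to 83.0%) had AATAAA or ATTAAA in the 100 bp before the 3′ edge on the strand of the gene, while the window mirrored onto the strand of the partner had either in 21.0% (18.8 to 23.3%). For any of the 12 signal variants of the study the shares were 94.7% and 51.1%, and for AATAAA within 50 bp they were 59.9% and 5.59%. AATAAA was most frequent 21 to 25 bp before the edge, with 20.4 per 100 peaks on the strand of the gene and 0.543 on that of the partner. A stretch of A after the edge, at which the oligo(dT) primer can bind inside a transcript, was present in 8 peaks (0.621%) on the strand of the gene and 2 on the other. Since the peaks were chosen by an edge at an annotated end of the gene and none at an end of the partner, these shares describe annotated ends, and no test is given.

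**Figure D3:**
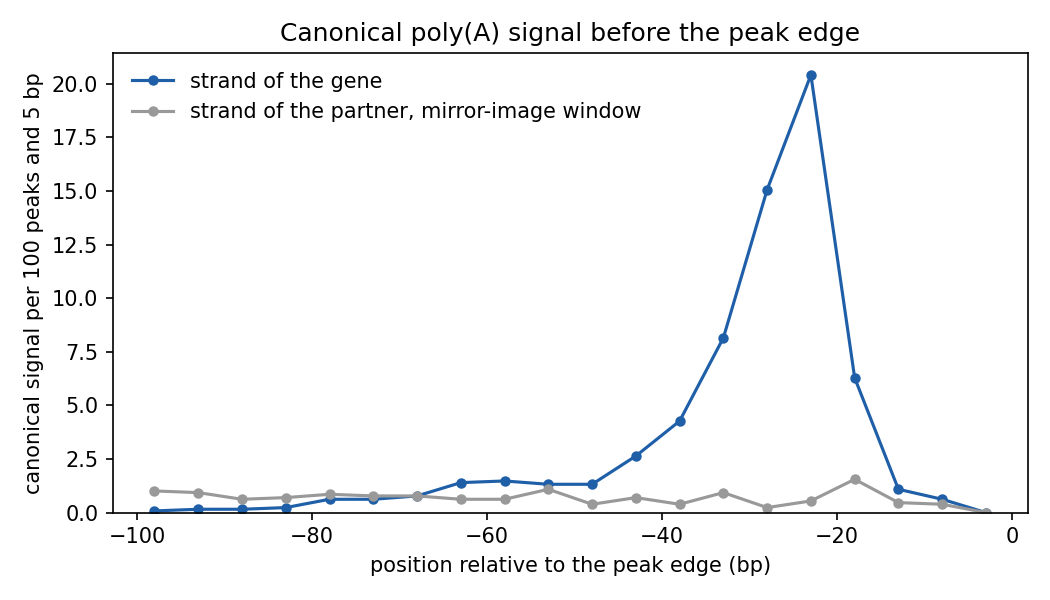
Frequency of the canonical poly(A) signal, per 100 peaks and 5 bp (vertical axis), by position relative to the 3′ edge in bp (horizontal axis), at 1288 peaks that end 1 gene. The line for the strand of the gene reaches 20.4 at 21 to 25 bp before the edge, where the line for the strand of the partner is at 0.543.

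At 76 peaks, serving 75 pairs, 1 edge lay at the forward gene's end and the other at the reverse gene's end. Where the ends overlap by about 100 bp, the extended reads of 1 gene alone can place both edges. An example is ALKBH7/PSPN, with a width of 100 bp and an annotated overlap of 103 bp. Since the peaks carry no strand, it is not shown that both genes end there. Among the highest pileups of the 76 peaks were 67 at PPP6R2/SBF1 (chr22:50444272-50444437), 60 at MLST8/BRICD5 (chr16:2209282-2209435) and 55 at MRPL49/SYVN1 (chr11:65127245-65127384). MLST8 encodes a subunit of the mTOR complexes and SYVN1 an ubiquitin ligase of the endoplasmic reticulum.

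AATAAA or ATTAAA stood before both edges in 50 of the 76 (65.8%, 54.6 to 75.5%), and the other 26 lacked it on at least 1 strand. Both edges of these peaks were chosen for lying at annotated ends, so this share is a description. Their median pileup was 29 (quartiles 22.8 and 40.3), against 21 (15 and 32) in peaks ending 1 gene, and their median width was 154 bp against 120 bp. A further 197 members (7.02%) held annotated ends of both genes without an edge at either, and had median values of 288 bp for width and 31 for pileup. Of 54 members with a pileup over 60, 21 held or edged ends of both genes. Among all members, 2.71% had both edges at ends and 7.02% held both ends inside. Reads of both genes can add to 1 pileup, so a choice by pileup can favour such peaks.

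The highest fold enrichments of members were found at the following pairs. The fold enrichment was 32.5 at TAS1R3/DVL1 (chr1:1335277-1335441, pileup 62, background 0.940), 31.5 at LLGL1/FLII (chr17:18244742-18244965, pileup 73), 30.8 at SLC48A1/HDAC7 (chr12:47782654-47782879, pileup 69) and 29.2 at TSC2/PKD1 (chr16:2088588-2088809, pileup 46). In LLGL1/FLII, SLC48A1/HDAC7 and TSC2/PKD1 annotated ends of both genes lay inside the peak, whereas the peak of TAS1R3/DVL1 had an edge at the end of DVL1 alone. The fifth, LTC4S/MGAT4B, had a fold enrichment of 28.3 and a peak that ended MGAT4B alone, with the genes 949 bp apart. DVL1 acts in Wnt signalling, HDAC7 is a histone deacetylase, and TSC2 and PKD1 are the genes of tuberous sclerosis and polycystic kidney disease.

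Whether 1 peak lay over both ends followed their distance, which the read extension and the 50 bp allowance favour by construction. Reads of 1 gene alone, extended to 100 bp, can span both ends where these overlap by up to 100 bp. The shares are therefore a description. A single peak covered, or came within 50 bp of, both most distal ends in 157 of 168 pairs overlapping by 1 to 100 bp (93.5%, 88.7 to 96.3%). The share was 84.5% for overlaps over 100 and up to 200 bp and 0.963% for overlaps over 300 bp, with 18 of 30 pairs between these classes. With a gap it was 73.9% up to 100 bp, 13.6% over 100 and up to 200 bp and 1.07% beyond 200 bp. Signals of both genes were searched in these peaks before the annotated ends. AATAAA or ATTAAA was present for both genes in 34 of 54 peaks with both edges at ends (63.0%, 49.6 to 74.6%) and in 79 of 140 with both ends inside (56.4%, 48.2 to 64.4%), and for neither in 3 and 12.

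**Figure D4:**
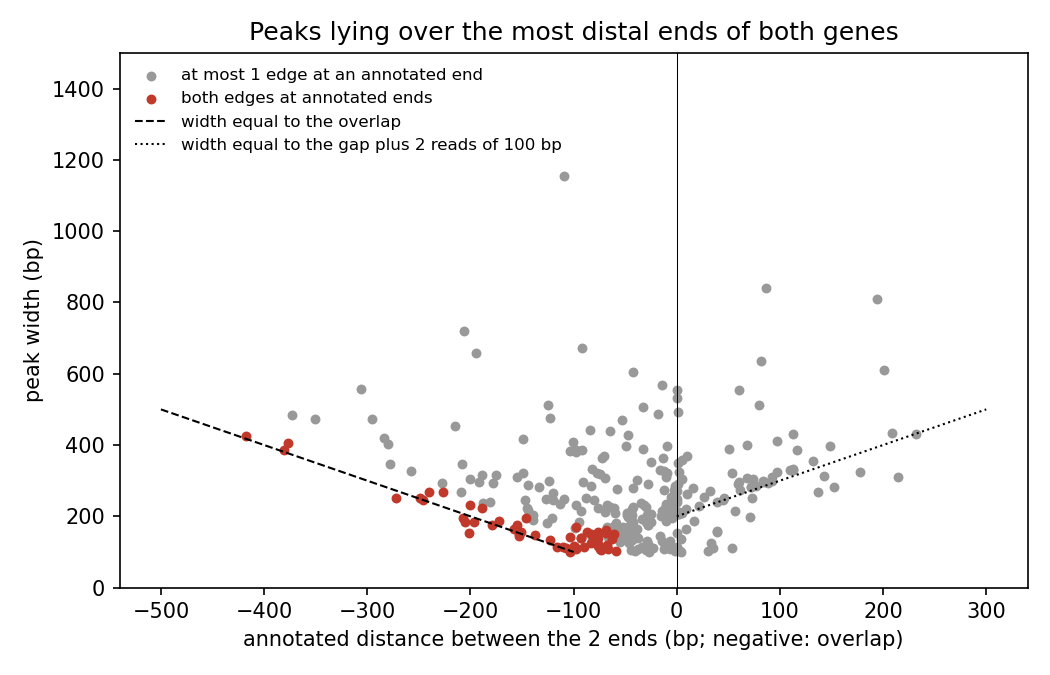
Width in bp (vertical axis) of the 311 peaks over both most distal ends of a pair by the annotated distance between the ends in bp (horizontal axis, negative for overlaps); each point is 1 peak of a pair. Of the 54 peaks with both edges at ends (red), the 29 with an overlap over 100 bp lie within 50 bp of the line of width equal to overlap and the 25 with a smaller overlap have widths from 104 to 169 bp, as the edge rule and the read extension set; peaks over a gap lie around the line of the gap plus 2 extended reads.

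Where each gene had a strongest peak of its own, both could be compared. This was the case in 257 of the 327 pairs, and the other 70 shared their strongest peak. The ratio of the higher to the lower pileup had a median of 1.54 (quartiles 1.21 and 2.08) and was under 2 in 178 pairs (69.3%). Across the 257 pairs the log2 pileups of both genes had a Pearson r of 0.330 and a Spearman rho of 0.296, as a description; pairs lie in 1 merged list and share their local background, whose log2 values had an r of 0.946.

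The pairs with the highest pileup at their weaker end were the following. FKBP2, a prolyl isomerase gene, had 54 reads and PPP1R14B, a phosphatase inhibitor gene, also 54. The end of FKBP2 is shared with the annotated gene ENSG00000286264, which forms a second pair with the same peaks. MRPS22, a mitochondrial ribosomal protein gene, had 53 and COPB2, a coatomer gene, 42. GAPDH, the glycolytic enzyme, had 48 and IFFO1 had 41. The heat shock protein gene HSP90AB1 had 78 and the nucleotide sugar transporter gene SLC35B2 had 38. SSBP4 had 60 and ISYNA1, which makes inositol phosphate, had 40, CEBPZOS had 40 and CEBPZ 52, and CREB3L4 had 43 and JTB 37. The peaks of SSBP4 and CREB3L4 also lay over the most distal end of the partner, whose reads they may hold. Pileups were not read as transcript abundance, since the handling of duplicate reads is not stated and GAPDH, an abundant transcript, had 48.

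The ratio was 4 or more in 6 pairs. At LHFPL5/SRPK1 the peak of SRPK1, a kinase of splicing factors, had 44 reads and that of LHFPL5 had 7, a ratio of 6.29. At ARMC8/NME9 the pileups were 42 and 9, at CNP/DNAJC7 16 and 69, at PHRF1/IRF7 51 and 12, and at TRIM55/CRH 9 and 38. CRH encodes corticotropin-releasing hormone, IRF7 an interferon regulatory factor and DNAJC7 a co-chaperone.

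**Figure D5:**
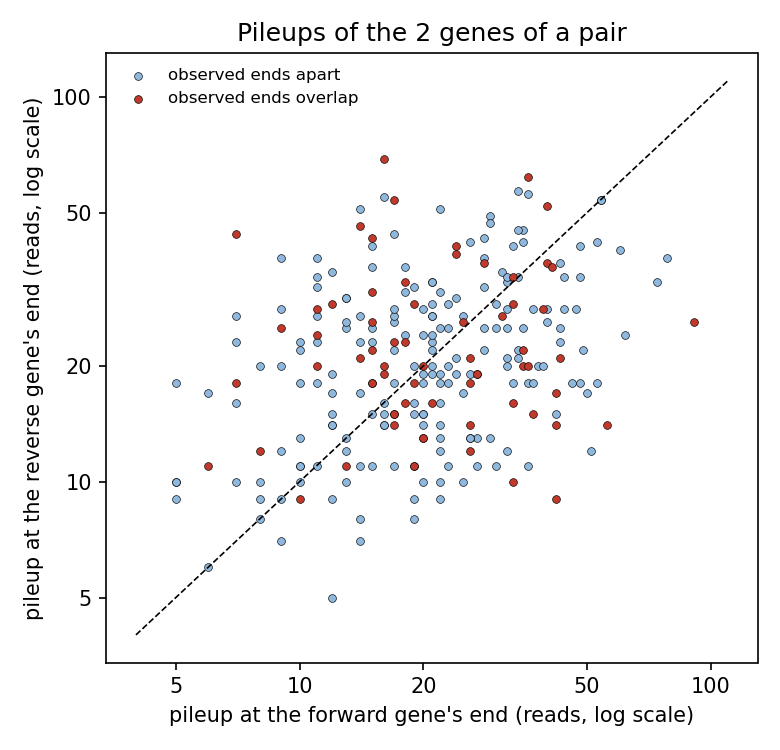
Pileup in reads at the end of the forward gene (horizontal axis) and of the reverse gene (vertical axis), both on log scales, for the 257 pairs whose genes have different strongest peaks; the dashed line marks equal pileups. Points scatter on both sides of it with a Pearson r of 0.330 on the log2 scale, and 178 pairs have a ratio under 2.

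The ends used by the strongest peaks were set beside the annotation. Among the 257 pairs with different strongest peaks, the observed ends overlapped in 64 (24.9%, 20.01 to 30.5%). In 37 more the most distal annotated ends overlapped and the observed ends lay apart. The 70 pairs with a shared strongest peak overlap by construction, since both edges of 1 peak are their ends, and are left out here. Examples of the 37 are SSBP4/ISYNA1, CREB3L4/JTB and SAMD4B/PAF1, with annotated overlaps of 175, 93 and 82 bp. In each of them the peak of the forward gene also lay over the most distal end of the partner. Reads of the partner in that peak cannot be told apart, so an overlap of the transcripts is not excluded. The median observed overlap of the 64 pairs was 2571.5 bp. It exceeded 1 kb in 51 pairs and 10 kb in 8.

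Some pairs with both ends detected overlapped over long distances. The longest annotated overlaps with both ends detected were 52.7 kb at GPSM2/CLCC1, 41.04 kb at NOPCHAP1/ALDH1L2, 36.9 kb at ARMC8/NME9, 29.9 kb at NDUFB9/MTSS1 and 28.1 kb at MRPL19/GCFC2. In 3 of these the strongest peaks overlapped as well, by 41042 bp at NOPCHAP1/ALDH1L2, 34044 bp at ARMC8/NME9 and 29872 bp at NDUFB9/MTSS1. NOPCHAP1 ended with 6 reads and ALDH1L2, a mitochondrial folate enzyme gene, with 11. NDUFB9, a subunit gene of respiratory complex I, had 7 reads and MTSS1 had 18, so the overlapping ends of both pairs rest on low pileups. In GPSM2/CLCC1 the strongest peaks, with 44 and 28 reads, lay 1374 bp apart. In MRPL19/GCFC2 the strongest peaks, with 24 and 21 reads, lay at shorter annotated ends and did not overlap, at chr2:75662106-75662209 and chr2:75664429-75664739.

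The place of a detected end in the partner gene was read from the annotation. Of 1348 detected ends, 25 (1.85%) lay in coding sequence of the partner, 448 (33.2%) in its UTR or a non-coding exon, 261 (19.4%) in an intron and 614 (45.5%) outside it. In pairs with overlapping annotation, 59.7% of 780 detected ends lay in an exon of the partner. An end in an annotated exon of the partner shows shared sequence only where the transcripts of the partner reach that far. At SSBP4/ISYNA1 and CREB3L4/JTB, for example, the strongest peaks with an edge at an end of each gene lay apart. The peak of the forward gene nevertheless covered the most distal end of the partner, so it is not known whether the transcripts overlap.

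Of the members, 983 (35.0%) were at no annotated end. Of these, 764 lay in pairs overlapping by more than 1 kb and 675 inside the overlap itself. They had a median pileup of 15 and a median fold enrichment of 6.32, against 21 and 9.24 for peaks ending 1 gene. AATAAA stood within 50 bp of an edge on 1 strand in 303 (30.8%) and on neither strand in 665. The pairs with the most members were those with long overlaps: SYNE2/ESR2 with 21, RHOBTB3/GLRX with 17, GPSM2/CLCC1 with 15, FNTB/MAX with 14 and ABI2/RAPH1 with 13. In SYNE2/ESR2, 20 of the 21 peaks were at no annotated end, with pileups from 4 to 20, whereas the peak at the end of SYNE2 (chr14:64226014-64226447) had 21. FNTB, a farnesyltransferase subunit gene, ended in a peak of 18 reads, and MAX, the dimerisation partner of MYC proteins, had no peak at an annotated end.

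Ends in convergent pairs were compared with 12004 isolated ends, with no other protein-coding gene within 5 kb on either side, and with 522 tandem ends, followed within 1 kb by a gene on the same strand. Counting annotated ends within 600 bp of the most distal one, a peak stood at an end in 42.8% of convergent genes (40.99 to 44.6%), 46.8% of isolated genes (45.9 to 47.7%) and 59.96% of tandem genes (55.7 to 64.1%). The difference from isolated ends was −3.97 points (−5.99 to −1.94), but it depended on how an end was counted. It was +3.67 points with edges within 100 bp, +14.7 when an end inside a peak also counted and +11.8 for pairs with a gap over 200 bp alone. The difference from tandem ends was −17.2 points (−21.7 to −12.5), and its interval included 0 under the last 2 of these settings. A peak of any kind within 600 bp was found at 78.1%, 54.5% and 72.4% of the ends, where peaks of the partner count at convergent ends.

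The strongest peak at a detected end had a median pileup of 22 (95% interval of the median 21 to 23) in convergent genes, 18 (18 to 18) in isolated and 20 (19 to 22) in tandem genes. The median background was 1.27 (1.19 to 1.32), 0.790 (0.770 to 0.810) and 1.03 (0.970 to 1.16) reads per 100 bp, and the median fold enrichment 9.84 (9.42 to 10.2), 10.1 (9.95 to 10.2) and 9.90 (9.22 to 10.3). Thus pileup and background were both higher at convergent than at isolated ends, and the intervals of the fold enrichment overlapped. Without a strand, peaks and background at convergent ends can hold reads of the partner, whose part in these differences was not tested. For pairs with a gap over 200 bp alone, the median pileup was 21 (19 to 22) and the median background 1.13 (1.06 to 1.22). Convergent genes had a median length of 21.3 kb, isolated genes 30.1 kb and tandem genes 11.97 kb, and the part of gene length in these differences was not tested. AATAAA or ATTAAA stood before the edge on the strand of the gene at 82.9% of convergent and 89.4% of isolated ends, a difference of −6.49 points (−8.84 to −4.31). On the opposite strand the shares were 26.5% and 26.1%, a difference of 0.42 points (−2.25 to 3.22).

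Genes of the DNA damage response were found in pairs in each of 3 lists. Of 38 genes of homologous recombination and the Fanconi pathway, 13 (34.2%) were in pairs, against 14.6% of all protein-coding genes. They were BRCA2, EME1, FAN1, FANCA, FANCD2, FANCI, FANCL, MUS81, NBN, RAD52, RAD54L, RMI2 and XRCC3. Of the 13, 9 were detected at an annotated end, with a median pileup of 33, against 47.1% of all convergent genes detected at any annotated end, the rule used for the lists, and a median of 23. FANCI, the partner of FANCD2 in a DNA clamp, ended with 36 reads opposite POLG, the mitochondrial DNA polymerase gene, with 62, and the annotated ends overlap by 942 bp. EME1, a nuclease subunit gene, shared 1 peak of 44 reads with LRRC59 (chr17:50381240-50381484). FANCA ended with 34 reads opposite ZNF276 with 33. RAD54L, a recombination motor protein gene, ended with 65 reads, and its partner LRRC41 had no peak at an annotated end.

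Of 47 genes of excision, mismatch and end-joining repair, 15 (31.9%) were in pairs and 7 of these were detected, with a median pileup of 21. ERCC1, a nuclease subunit gene of excision repair, shared a peak of 46 reads with POLR1G, a subunit gene of RNA polymerase I (chr19:45409615-45409792). MUTYH, a DNA glycosylase gene, ended with 18 reads opposite HPDL with 53, and DCLRE1C, which encodes Artemis, with 14 opposite SUV39H2 with 42. LIG3, a DNA ligase gene, had no peak at an annotated end, whereas its partner RFFL had 43 reads. A member at no annotated end (chr17:35009484-35009590) had 26 reads and AATAAA 18 bp before its forward edge. Of 25 damage checkpoint genes, 5 were in pairs and 2 were detected, TP53BP1 with 19 reads and CHEK1 with 15. ATRIP and RAD9A had no edge at an annotated end, and their partners SHISA5 and PPP1CA had 40 and 31 reads. The end of RAD9A lay inside the peak of PPP1CA (chr11:67398179-67398472).

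Of 33 genes of cleavage, polyadenylation and termination, 6 (18.2%, against 14.6% of all protein-coding genes) were in pairs and 4 were detected, with a median pileup of 33.5. CPSF4, a subunit gene of the complex that binds the poly(A) signal, ended with 33 reads opposite the ATP synthase gene ATP5MF with 41. FIP1L1, of the same complex, ended with 39 reads opposite LNX1 with 28, and PAF1, of the elongation complex of that name, with 34 opposite SAMD4B with 48. Of 25 genes of transcriptional kinases, cyclins and elongation factors, 6 (24.0%) were in pairs, namely CCNK, CDK11B and the elongation factor genes NELFA, NELFCD, NELFE and SUPT6H, and 4 were detected, with a median of 30.5. CCNK, the cyclin partner of CDK12, had no peak at an annotated end, although 7 members lay in its overlap of 34.9 kb with CCDC85C, which ended with 36 reads. The member at chr14:99511082-99511512, at no annotated end, had 32 reads and AATAAA 19 bp before its forward edge, so an unannotated end of CCNK is not excluded. NELFA and NELFCD, subunits of the negative elongation factor, ended with 34 and 39 reads, and NELFE with 27.

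Of 46 splicing factor genes, 8 (17.4%) were in pairs and 5 were detected, with a median pileup of 37. SRSF2 had 42 reads and its partner METTL23 had 26, SRSF10 had 28 opposite PNRC2 with 37, and SNRPG, an Sm protein gene, had 51 opposite PCYOX1 with 14. PTBP1, a splicing repressor gene, ended with 37 reads, and its partner PLPPR3 had no peak at an annotated end. Of 76 nuclear genes of oxidative phosphorylation, 13 (17.1%) were in pairs and 7 were detected, with a median of 40. Among them were the complex I gene NDUFB6 with 47 reads opposite SMIM27 with 29, the complex IV gene COX6C with 41 opposite VPS13B with 15, and the complex III gene UQCRC2 with 40.

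Of 27 neuroblastoma transcription factor and catecholamine genes, 3 (11.1%) were in pairs, and none of the 3 had an edge at an annotated end, although each end lay inside a peak. PHOX2A shared the peak of 121 reads described above. SLC18A2, the vesicular monoamine transporter gene, had its end inside a peak of 32 reads (chr10:117279327-117279496), in an overlap of 2157 bp with PDZD8. ALK, a receptor kinase gene of neuroblastoma, had its end inside a peak of 21 reads (chr2:29192619-29193099), in an overlap of 7004 bp with CLIP4. Genes of several lists, such as RAD9A and PPP1CA, form pairs with each other, so the lists are not independent, and no list was tested against the other genes.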

How the data were processed

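Libraries were prepared by the authors with QuantSeq 3′ REV, which starts each read at the poly(A) junction. Reads were trimmed with BBDuk, mapped with STAR 2.5.1b to GRCh38 plus ERCC sequences, merged over all libraries and passed to MACS2 2.1.1, which extended reads to 100 bp without a shift. The deposited list gives per peak a score, a fold enrichment, which is a ratio, and a −log10 p and −log10 q by the authors. Duplicate handling and the q threshold are not given in the sources used here; by default MACS2 keeps 1 read per position and strand, which limits pileups.

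Pileup and background were recovered from the deposited fold and p, with a whole pileup for 100% of peaks (within 0.001 of the deposited −log10 p). Ends came from GENCODE release 44 basic transcripts, readthrough left out; the study used an older release. Coordinates count from 1. Peaks with no motif and an A stretch, the study's removal rule, numbered 27 members and were kept. Overlaps needed 1 bp. Scripts (Python 3.11.15, pandas 2.3.3, scipy 1.17.1) were tested on simulated data. Intervals are 95% Wilson for shares, Newcombe for differences and order statistics for medians, and cover counting or sampling of regions only; reads carry no molecular identifiers. Named pairs were the 8 highest by weaker end, the 5 highest by shared peak, fold, overlap length, number of members and ratio, and up to 4 per list. Some pairs that these rules select are not reported here. The members and lists were chosen with earlier results of these data known. Motif searches covered both strands. Alternatives were the q threshold, flank, gap, edge tolerance, annotation and removal rule.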

Additional observations from a re-analysis of the deposited data

How the results depend on the processing

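The list was called on merged libraries, and leaving out 1 library was not run. No paired analysis was possible because the list has no column per library. Of the alternatives, 70 values were counted as unchanged. For shares and medians this meant a value within the main interval, and for counts a value within 1.5 times the main count. For differences it meant the same sign and, where an interval was given, one that still excluded no difference, so their size could change. The difference between convergent and isolated ends, for example, was −7.22 points with edges within 25 bp.

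The share of pairs with both ends detected (22.9%) was 13.4% with a −log10 q of at least 10, 18.0% with edges within 25 bp, 34.9% with edges within 100 bp, 17.5% with the most distal ends alone and 55.4% when an end inside a peak also counted. The number of members fell to 1781 with a −log10 q of at least 10, and peaks with edges at ends of both genes numbered 39 with edges within 25 bp and 189 within 100 bp. The difference between convergent and isolated ends (−3.97 points) reversed to +3.67 with edges within 100 bp, +14.7 when an end inside a peak also counted and +11.8 for gaps over 200 bp. From tandem ends it was −2.73 (−6.96 to 1.72) and −1.37 (−6.83 to 4.14) under the last 2 settings, which were chosen after seeing the data, as was the one on overlapping annotation below. The share of detected ends in a partner exon was 39.4% with a −log10 q of at least 10, 42.3% with gaps up to 500 bp, 31.3% and 43.0% with edges within 25 and 100 bp, and 59.7% in pairs with overlapping annotation.

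With a −log10 q of at least 5, isolated ends had a median pileup of 19, background of 0.810 and fold enrichment of 10.3. With at least 10 they had 22, 0.850 and 11.7, and convergent ends had a pileup of 26 and a fold enrichment of 11.1. The median background of convergent ends was 1.13 for gaps over 200 bp.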
